A study of Mus musculus with 14 samples.

Results

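CpG islands that lie away from annotated promoters were examined by reduced-representation bisulfite sequencing (RRBS) of mammary adipose tissue. The sites were chosen by annotation alone: a measured cytosine on chromosomes 1 to 19 that the deposited table flags as inside a CpG island and not inside a promoter. Of the 75761 sites in the table, 7392 met this rule (9.76%), and they lay nearest to transcripts of 1196 genes. The tissue came from the mammary fat pad opposite the tumor in 14 female wild-type C57BL/6NCrl mice (C57BL/6N in the labels), which were randomized to diet as young adults. The 3 CON-LFD mice stayed on the low-fat control diet D12450J and had sham surgery. The 11 other mice first became obese on the diet D12492, with 60% of its energy from fat. The 4 DIO-HFD mice stayed on it and had sham surgery, the 3 DIO-LFD mice were changed to the low-fat diet after sham surgery, and the 4 DIO-VSG mice had vertical sleeve gastrectomy (VSG), a stomach-reducing operation, together with the low-fat diet. All 14 mice carried a tumor: E0771 cells, a mouse mammary cancer line, were placed in the fourth mammary fat pad 22 weeks after the first diet assignment. Each sample was whole tissue, so a change of methylation within cells and a change in the mix of cells cannot be told apart.

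DNA methylation in mammals is mostly found on the cytosine of a CpG, the dinucleotide of C followed by G. Most CpG sites of the genome are methylated, and CpG islands, short stretches rich in C, G and CpG, are the main exception when they cover a promoter. Islands inside gene bodies or between genes are more varied. Some are unannotated start sites, some control imprinted genes or developmental regulators, and others, such as CpG-dense coding exons, can be methylated in normal tissue. RRBS cuts DNA with MspI at the sequence CCGG and reads short fragments, here of 40 to 170 bp, and so samples CpG-dense DNA.

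The sequences below are those of sites and stretches named further on, read from mm10 on the plus strand. Each has 20 bases on either side of the outermost site except Gnas, where a window inside a longer stretch is shown. That longer Gnas stretch was even between mice. Capitals mark the measured CpG sites, and every other base is in lower case.
Meis2 (chr2:116062272-116062427): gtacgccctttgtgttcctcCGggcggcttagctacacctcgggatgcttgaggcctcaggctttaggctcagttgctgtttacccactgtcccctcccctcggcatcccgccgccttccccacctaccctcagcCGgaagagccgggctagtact
Mir196b (chr6:52228999-52229102): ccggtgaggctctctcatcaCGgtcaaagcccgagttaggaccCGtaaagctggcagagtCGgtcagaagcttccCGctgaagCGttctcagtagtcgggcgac
Rara (chr11:98936321-98936454): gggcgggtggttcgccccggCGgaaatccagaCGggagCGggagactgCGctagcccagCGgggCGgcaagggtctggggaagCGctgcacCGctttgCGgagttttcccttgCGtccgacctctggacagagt
Rasal3 (chr17:32396450-32396534): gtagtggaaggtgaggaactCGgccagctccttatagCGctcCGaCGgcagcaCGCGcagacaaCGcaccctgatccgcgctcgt
Nod1 (chr6:54943969-54944082): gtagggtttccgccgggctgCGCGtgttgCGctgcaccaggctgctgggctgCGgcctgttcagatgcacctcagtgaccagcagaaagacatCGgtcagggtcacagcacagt
Gnas (chr2:174299137-174299356): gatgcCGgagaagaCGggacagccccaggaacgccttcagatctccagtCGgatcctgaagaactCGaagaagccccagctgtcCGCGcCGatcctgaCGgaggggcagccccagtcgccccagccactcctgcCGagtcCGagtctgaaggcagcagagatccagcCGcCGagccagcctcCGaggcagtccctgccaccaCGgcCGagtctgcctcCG

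Non-promoter island sites were mainly exonic. The table placed 4680 of them in an exon (63.3%), 1487 in an intron only (20.1%) and 1225 in neither (16.6%). The nearest transcript start was 4900.5 bp away at the median and never closer than 1002 bp, and 24.7% of the sites were more than 10 kb away. In a window of 100 bases on either side of the site the median was 17 CpG, against 20 for the 9408 island sites in promoters and 7 for the 46737 sites outside both islands and promoters. The median G+C content of the same windows was 67.2%, 69.2% and 57.7% in that order. Genes differed in how many sites they had, with 365 genes at a single site and 206 genes with 10 or more, which together held 4566 sites. Chromosome 12 stood apart, since 21% of its measured sites were non-promoter island sites, against 5.69% to 14.7% on the other 18 autosomes.

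Levels, the share of reads methylated at a site, were spread over the whole range among the deposited sites. The authors' methods state that bases of low variability (SD under 0.05) were removed. Over these 14 mice, 1093 of the 7392 sites still had such an SD. How well the deposited sites stand for all CpG of these islands was not tested. By the median of the 14 mice, 21.3% of the sites were below 20%, 67.4% were from 20% to 80%, and 11.3% were at 80% or more. The median site stood at 46.3%. Island sites in promoters had a close median of 46.9% but fewer sites at 80% or more (3.33%), and outside islands and promoters the median site stood at 78.9%. Most sites lay close to others: 6236 of the 7392 lay in 646 stretches of 3 or more sites with gaps of at most 500 bp, and 405 of these stretches touched a coding exon. The spread of levels inside a stretch had a median SD of 13.3 percentage points.

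The level of a site differed with whether its CpG was part of a CCGG, the sequence MspI cuts. Such sites were 25.8% of the non-promoter island sites and 69.5% of the island sites in promoters. The 5487 non-promoter island sites outside CCGG had a median of 38.2%, with 27.6% of sites below 20% and 19.3% of sites between 40% and 60%. The 1905 sites within CCGG had a median of 52.9%, with 3.20% of sites below 20% and 57.7% between 40% and 60%. In promoters the medians were 20% outside CCGG and 49.7% within. The close medians of both island classes over all sites thus come with unequal shares of CCGG sites.

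The same difference was present between close neighbors. For 442 non-promoter island sites within CCGG, other non-promoter island sites outside CCGG were measured within 25 bp, and the CCGG site was higher in 416 of these pairs. Where the neighbors were below 10%, their median level was 6.86% and that of the CCGG site was 48.1% (42 pairs). Where the neighbors were at 20% to 40%, the medians were 27.8% and 58.7% (103 pairs). Where they were at 60% to 80%, the medians were 68.8% and 80.2% (79 pairs), and at 80% or more both were close, at 82.8% and 84.0% (17 pairs). The median excess of the CCGG site was between 22.7 and 31.4 percentage points in each of the 14 mice. This comparison was chosen after the levels had been seen. CCGG sites lie at the ends of MspI fragments, and the part of the position in the fragment was not tested. Values are therefore given below with and without CCGG sites where they differ.

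**Figure D1:**
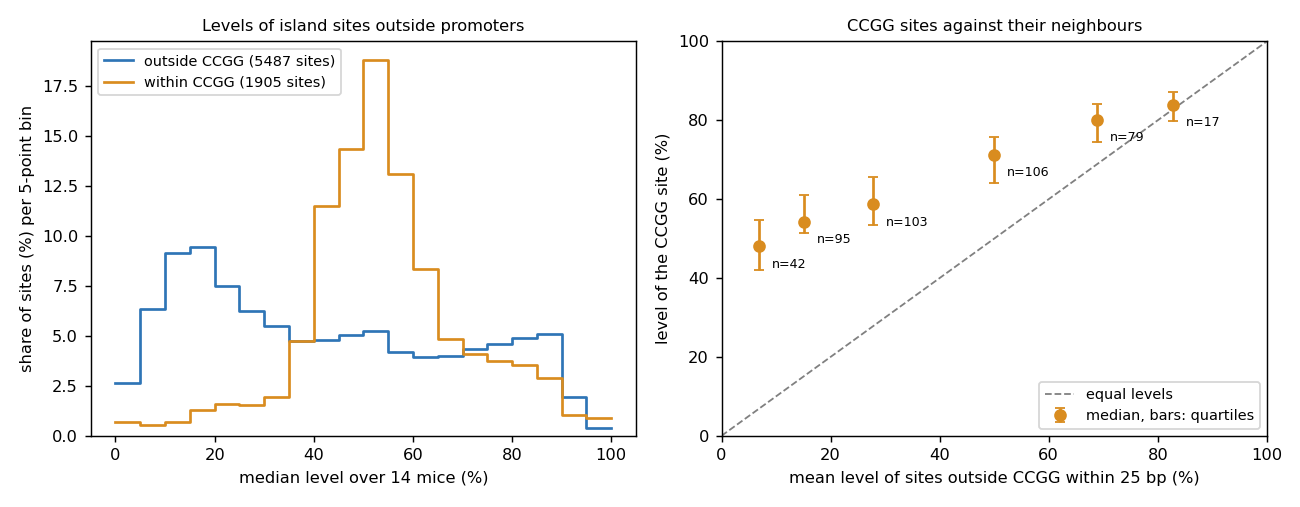
Left, share of the non-promoter island sites (%) in bins of 5 percentage points of the median level over 14 mice, for 5487 sites outside CCGG and 1905 within. Right, median level of CCGG sites (bars, quartiles) against the median of the mean level of their neighbors outside CCGG within 25 bp, in 6 bins of the neighbors' level, with the number of pairs. Sites within CCGG peak near the middle of the range, and CCGG sites lie above the line of equal levels except in the highest bin, which is close to it.

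Exonic sites were the most methylated, and sites that the table flags as neither exon nor intron, some of which lie in GENCODE genes, were the least. Exonic sites ranged from 42.7% to 53.2% over the 14 mice, intron-only sites from 35.8% to 43.4% and sites in neither from 31.6% to 39.5%, and this order held in 14 of 14 mice. Outside CCGG the DIO-VSG means were 48.8% in exons, 35.4% in introns and 28.4% in neither. Levels also differed with distance. Outside CCGG, sites up to 2 kb from a start had a median of 30.2%, sites 10 to 50 kb away had a median of 47.6%, and the 405 sites beyond 50 kb had a median of 19.9%. By CpG density, the median went from 44.3% at 10 to 15 CpG per window to 27.4% at 25 or more. Outside CCGG, DIO-HFD had the lowest group mean and DIO-VSG the highest in each of these classes.

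The mean level of the non-promoter islands was compared between groups to ask whether obesity and each form of weight loss went with a general difference. The mean over the 7392 sites was 46.5%, 46.0% and 42.4% in the CON-LFD mice, 48.9%, 39.5%, 43.6% and 41.2% in the DIO-HFD mice, 47.7%, 43.7% and 44.7% in the DIO-LFD mice, and 46.5%, 46.4%, 46.3% and 46.7% in the DIO-VSG mice. DIO-HFD replicate 1 was the highest of all 14 mice, while DIO-HFD replicates 2 and 4 were the lowest, so DIO-HFD overlapped every other group. The 4 DIO-VSG mice lay close together. DIO-VSG exceeded DIO-HFD by 3.21 points (46.5% ± 0.157 against 43.3% ± 4.11, SD, n = 4 each, two-sided exact permutation p = 0.143, adjusted over 4 comparisons 0.514). CON-LFD and DIO-LFD exceeded DIO-HFD by 1.69 and 2.09 points (exact permutation p = 0.514 for both), and DIO-VSG exceeded DIO-LFD by 1.13 points (exact permutation p = 0.286). The smallest p these tests can give is 0.0286 for 4 mice against 4 and 0.0571 for 3 against 4. After adjustment over the 4 comparisons, no p could fall below 0.0571.

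Single mice moved these differences. Without DIO-HFD replicate 1, DIO-VSG exceeded DIO-HFD by 5.09 points with no overlap, at an exact permutation p of 0.0571, the smallest p possible for that size. CON-LFD and DIO-LFD then exceeded DIO-HFD by 3.57 and 3.97 points (exact permutation p = 0.2 and 0.1). Without DIO-HFD replicate 2, DIO-VSG, DIO-LFD and CON-LFD exceeded DIO-HFD by only 1.95, 0.820 and 0.422 points. Without DIO-LFD replicate 2, DIO-VSG exceeded DIO-LFD by 0.279 points. DIO-HFD replicate 1 was the highest over all autosomal sites, at 65.2%, where the other DIO-HFD mice stood between 57.0% and 57.5%. Nothing in the sample labels sets this mouse apart.

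The group differences lay outside CCGG. There the DIO-HFD mice stood at 46.8%, 34.9%, 39.7% and 37.0%, and the DIO-VSG mice at 43.6% to 44.0%, a difference of 4.22 points (exact permutation p = 0.143). Within CCGG the means were 53.9% ± 1.22 in DIO-HFD and 54.2% ± 0.150 in DIO-VSG (SD, n = 4 each), a difference of 0.314 points (exact permutation p = 0.571). The single-site spread between mice of one group was narrowest in DIO-VSG, with a median SD of 3.91 points, against 5.41 in CON-LFD, 6.21 in DIO-LFD and 7.56 in DIO-HFD.

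**Figure D2:**
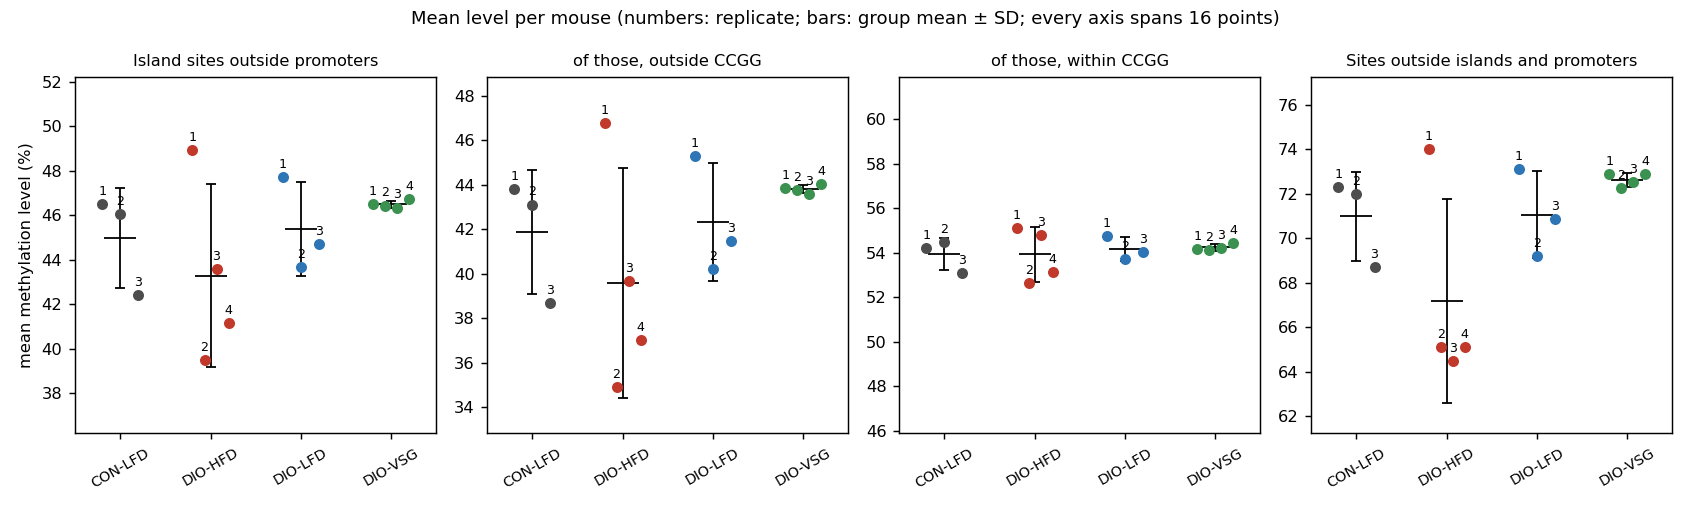
Mean methylation level (%) of each mouse over all 7392 non-promoter island sites, those outside and within CCGG, and the sites outside islands and promoters. Points are mice with their replicate number, bars are the group mean ± SD, and every axis spans 16 percentage points. DIO-HFD 1 stands above the other 3 DIO-HFD mice in each panel except within CCGG, where DIO-HFD 3 is close to it, and the 4 DIO-VSG mice lie close together.

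Islands in promoters and the remaining genome were measured in the same mice, so each mouse gives its own difference. Outside CCGG, non-promoter island sites exceeded promoter island sites by 13.9 points in DIO-HFD (± 0.243, SD, n = 4) and 13.9 in DIO-VSG (± 0.202, n = 4). The difference between these groups was 0.0179 points (exact permutation p = 0.943), although the levels themselves ranged from 34.9% to 46.8% between mice. With CCGG sites included, the excess over promoter islands was 0.652 points in DIO-HFD and 3.09 in DIO-VSG (exact permutation p = 0.143). Relative to sites outside islands and promoters, non-promoter islands were 23.9 points lower in DIO-HFD and 26.1 points lower in DIO-VSG, and the groups did not overlap (exact permutation p = 0.0286, adjusted over 4 comparisons 0.114). CON-LFD, at 26.02 points lower, also did not overlap DIO-HFD (exact permutation p = 0.0571, adjusted 0.114). DIO-HFD replicate 3, at 20.9 points lower, carried much of this: without it the difference of DIO-VSG from DIO-HFD went from -2.24 to -1.25 points and that of CON-LFD from -2.14 to -1.14. Outside CCGG only, both differences overlapped (exact permutation p = 0.143 and 0.171).

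Group differences were also viewed by the level of a site in CON-LFD. Sites were classed by their mean in the 3 CON-LFD mice, which were then left out of the comparison. At sites of 80% or more, the DIO-HFD mice stood at 89.9%, 78.1%, 79.7% and 80.1% and the DIO-VSG mice at 87.4% to 88.4%, a mean difference of 6.02 points (exact permutation p = 0.143). At sites below 20%, the DIO-HFD mice stood at 13.8%, 12.2%, 17.4% and 12.8% and the DIO-VSG mice at 12.7% to 13.03%, a difference of -1.17 points (exact permutation p = 0.4). Without DIO-HFD replicate 1, the difference at high sites was 8.67 points with no overlap and that at low sites was -1.24 points. The difference at low sites rested on DIO-HFD replicate 3, and without that mouse it was -0.0577 points (exact permutation p = 0.8), while that at high sites was 5.27 points. DIO-LFD exceeded DIO-HFD by 3.95 points at the high sites (exact permutation p = 0.343). Within each mouse, the gap between high and low sites was 7.20 points wider in DIO-VSG than in DIO-HFD (exact permutation p = 0.143, adjusted over 4 comparisons 0.229). For sites outside islands and promoters, classed alike, the gap was 6.02 points wider (exact permutation p = 0.143). A dependence on level was thus not established, and a similar gap was present outside islands.

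**Figure D3:**
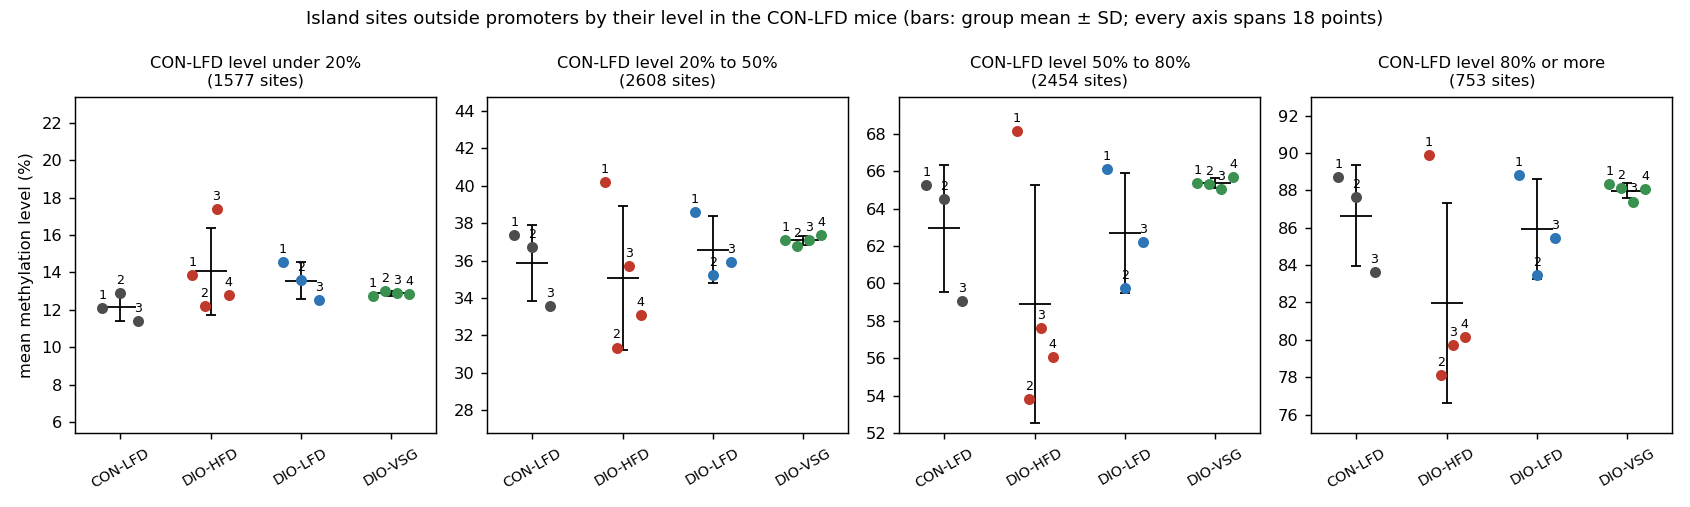
Mean methylation level (%) of each mouse over non-promoter island sites in 4 classes by their mean in the CON-LFD mice. Points are mice with their replicate number, bars are the group mean ± SD, and every axis spans 18 percentage points. From 20% upward DIO-HFD 2 to 4 lie below all DIO-VSG mice, and below 20% DIO-HFD 3 is the highest mouse.

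Single sites were tested with limma on log2 ratios of methylated to unmethylated share (M), over the 65610 sites of the table whose level had an SD of at least 0.05 across mice, including 6299 non-promoter island sites. None of these 6299 passed an adjusted p of 0.05 in any of the 4 comparisons. Of all sites tested, 0.0% passed for CON-LFD relative to DIO-HFD, and 0.00305% passed in each of the other comparisons. At an unadjusted p of 0.05, limma picked 413 non-promoter island sites for CON-LFD relative to DIO-HFD (6.56%, against 7.76% of all sites tested) and 578 for DIO-LFD relative to DIO-HFD (9.18%, against 10.1%). It picked 1681 for DIO-VSG relative to DIO-HFD (26.7%, against 25%) and 192 for DIO-VSG relative to DIO-LFD (3.05%, against 3.98%). These shares were close to the background, and the comparisons share the DIO-HFD mice. Outside CCGG the share for DIO-VSG relative to DIO-HFD was 32.2%, and that of promoter island sites outside CCGG was 25.3%. The share over all tested sites outside CCGG was not computed, so the 32.2% has no background of its own.

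Of the 1681 sites, 1155 were higher and 526 lower in DIO-VSG. Lower sites were 31.3% of those picked, against 19.4% over the whole table. The median M of all tested sites was 0.48 higher in DIO-VSG than in DIO-HFD (0.29 higher in CON-LFD and in DIO-LFD). When each mouse was centred on its median M, the split turned to 567 higher and 1164 lower. Over the whole table, 5666 of the 13113 sites then picked were higher, so fewer were higher there too. Of the tested sites at 80% or more in CON-LFD, 24.0% were higher and 0.96% lower in DIO-VSG at an unadjusted p of 0.05. Of those below 20%, 11.6% were higher and 19.1% lower. Shares over the whole table at the same levels were not computed. Without DIO-HFD replicate 1, limma called 2547 non-promoter island sites for DIO-VSG relative to DIO-HFD at an adjusted p of 0.05 (40.4%, against 34.4% of all sites). It then called 928 for CON-LFD (14.7%, against 12%) and 1083 for DIO-LFD (17.2%, against 14.6%).

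The site with the smallest p in each comparison with DIO-HFD was in Meis2, a homeobox transcription factor active in limb, heart and nerve cell development. It lies within a CCGG in an exon at chr2:116062407, 2106 bp from the nearest start, and is the second site marked in the Meis2 sequence above. Its level was 14.4%, 12.4%, 15% and 11.3% in the DIO-HFD mice, 0% in all 4 DIO-VSG mice, 0%, 0% and 2.22% in the CON-LFD mice, and 0%, 3.77% and 0% in the DIO-LFD mice. All 4 DIO-HFD mice, replicate 1 included, lay above the other 10. DIO-VSG was lower than DIO-HFD (0% against 13.3% ± 1.73, SD, n = 4 each), by limma -4.03 in M (SE 0.51, adjusted p = 0.0548), and adjusted p ranged from 0.000635 to 0.230 over the other settings. The first site marked, chr2:116062292, also within a CCGG, went the other way. It stood at 81.5%, 79.8%, 84.9% and 85.1% in DIO-HFD and at 100%, 100%, 97.4% and 95.1% in DIO-VSG (limma adjusted p = 0.150). CON-LFD stood at 93.3% to 95.2% and DIO-LFD at 84.6% to 96.2%, so DIO-LFD and DIO-HFD overlapped at this site. DIO-VSG and DIO-LFD differed most by p at Axin2, a scaffold protein that restrains Wnt signaling. This intronic site (chr11:108922001) was at 0% in DIO-VSG and at 2.67%, 20% and 6.06% in DIO-LFD (limma adjusted p = 0.672).

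Sites like that of Meis2, where all mice of a group lay outside the range of all others, were then counted, a count chosen after its values had been seen. For DIO-HFD there were 48 of the 6299 (0.762%), 30 with DIO-HFD above and 18 below, against 0.62% of all tested sites. For CON-LFD there were 20 sites (0.221% of all tested sites did so), for DIO-LFD 18 (0.372%) and for DIO-VSG 21 (0.445%). The DIO-HFD share was thus close to that of the whole table. The 48 sites included 11 near Egr3 and 5 near Zfp316 with DIO-HFD above, and 5 near Gm45353 with DIO-HFD below.

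Egr3 encodes an early growth response zinc finger factor that is induced by mitogens and by antigen receptors. Its stretch of 47 sites, partly coding (chr14:70079169-70080077), stood at 34.5%, 44.6%, 51.6% and 51.8% in DIO-HFD, 29.7%, 33.1% and 35.6% in CON-LFD, 32.4%, 31.3% and 33.5% in DIO-LFD, and 30.7%, 30.8%, 31.2% and 31.3% in DIO-VSG. DIO-HFD replicates 2 to 4 exceeded every other mouse, and replicate 1 lay among the others. The 3 mice lay above the other groups' 10 mice at 40 of the 47 sites, and replicate 1 joined them at 11. Over the stretch, DIO-VSG was 14.6 points lower than DIO-HFD (limma, -0.88 in M, SE 0.28, adjusted p = 0.0630).

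**Figure D4:**
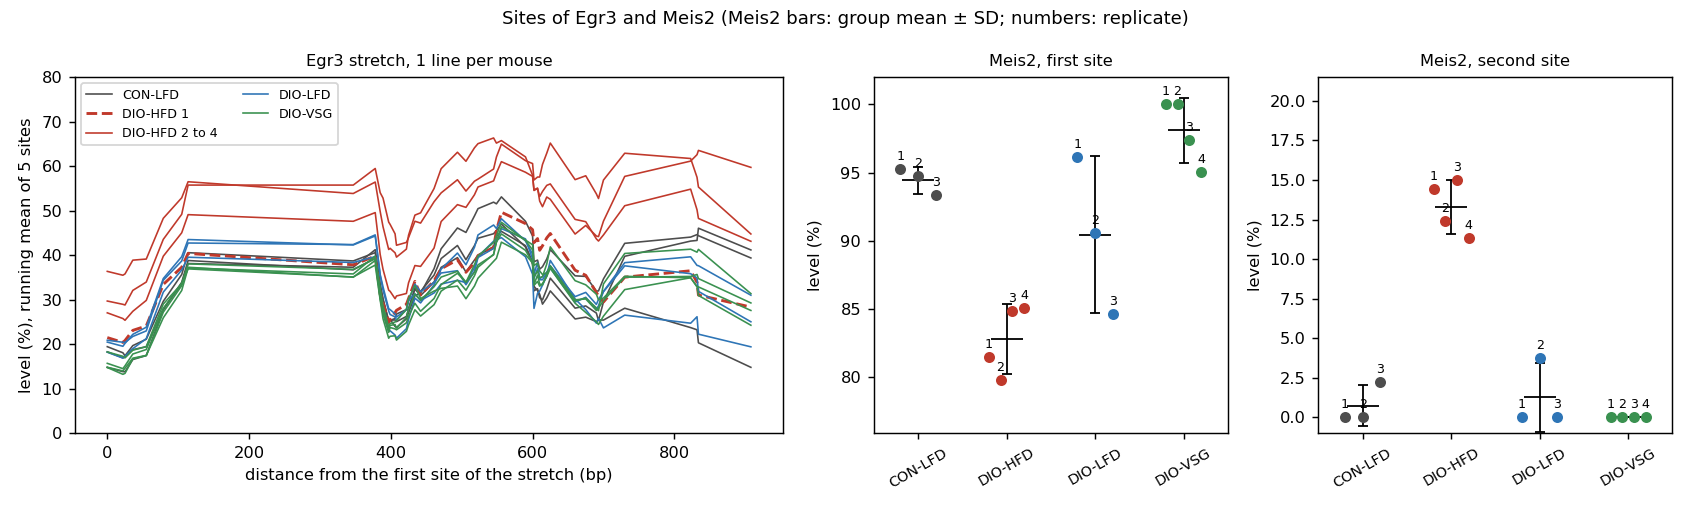
Left, level (%) along the Egr3 stretch as a running mean of 5 sites, against the distance from its first site in bp, with 1 line per mouse and DIO-HFD 1 dashed. Middle and right, levels (%) at the 2 measured Meis2 sites, where points are mice with replicate numbers and bars are the group mean ± SD. DIO-HFD 2 to 4 run above the other mice along Egr3, and all 4 DIO-HFD mice lie above the other 10 at the second Meis2 site.

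Stretches of 3 or more sites were tested by limma on their mean level, 324 of the 646 with an SD of at least 0.05, with p adjusted over 4712 stretches of the table. None passed an adjusted p of 0.05 in any of the 4 comparisons, as in the whole table (0.0%). At an unadjusted p of 0.05 there were 28 for CON-LFD relative to DIO-HFD (8.64%, against 9.8% of all stretches), 37 for DIO-LFD (11.4%, against 12.5%), 158 for DIO-VSG (48.8%, against 50.9%) and 5 for DIO-VSG relative to DIO-LFD (1.54%, against 2.06%). Of the 158, 117 were higher and 41 lower in DIO-VSG, and 84.4% of all stretches picked in the table were higher. Centring each mouse changed the split of the non-promoter island stretches to 36 higher and 84 lower. Over all stretches, 625 of the 1359 then picked were higher. Without DIO-HFD replicate 1, limma called 187 stretches at an adjusted p of 0.05 between CON-LFD and DIO-HFD (57.7%, against 58.1% in the whole table). DIO-LFD then had 188 (58.0%, against 58.3%) and DIO-VSG 260 (80.2%, against 80.8%).

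The 10 stretches with the smallest p for DIO-VSG relative to DIO-HFD all had an adjusted p of 0.0630 by limma. Of these, 6 were higher in DIO-VSG. The Rara intron (chr11:98936341-98936434, 10 sites), in the gene of retinoic acid receptor alpha, stood at 46.9%, 7.94%, 4.28% and 5.98% in DIO-HFD and at 39.0%, 34.5%, 43.9% and 38.6% in DIO-VSG. The CON-LFD mice stood at 42.8%, 30.5% and 23.9% and the DIO-LFD mice at 43.2%, 16.7% and 31.7%. DIO-HFD replicates 2 to 4 were below all other mice, and replicate 1 was above them all. The same order was present in the coding exon of Rasal3 (chr17:32396470-32396514, 7 sites), a Ras GTPase-activating protein of blood cells, with 57.4%, 9.99%, 17.98% and 12.6% in DIO-HFD, 46.6% to 55.2% in DIO-VSG and 26.8% to 51.05% in the mice of the other two groups. Nod1, a sensor of bacterial cell wall fragments, had a coding stretch (chr6:54943989-54944062, 5 sites) at 87.6%, 66.2%, 70.7% and 71.2% in DIO-HFD and at 88.5% to 93.9% in DIO-VSG. There the difference was 16.7 points (1.62 in M, SE 0.40), and no DIO-HFD mouse reached the DIO-VSG range.

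An intergenic stretch 19300 bp from the start of Socs3, a brake on cytokine signaling, stood at 20.8%, 3.746%, 4.10% and 3.48% in DIO-HFD and at 16.2% to 23.2% in DIO-VSG (chr11:117949857-117949933, 5 sites). A Bend4 intron nearest to Gm26756 (chr5:67426649-67426661, 3 sites) stood at 28.6%, 5.81%, 7.83% and 2.48% in DIO-HFD and at 20.7% to 37.0% in DIO-VSG. An intergenic stretch nearest to Zfp534 stood at 30.9% to 40.0% in DIO-HFD and at 45.6% to 62.5% in DIO-VSG. Reads at 6 of its 7 sites may not be unique, because the surrounding 51 bases occur more than once in mm10.

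Of the 10 stretches, 4 were lower in DIO-VSG. A Hoxa9 exon nearest to Mir196b, a microRNA gene of the Hoxa cluster, stood at 13.5%, 28.6%, 25.1% and 26.1% in DIO-HFD, at 9.94% to 12.8% in DIO-VSG, at 12.2% to 14.8% in CON-LFD and at 11.7% to 12.6% in DIO-LFD (chr6:52229019-52229082, 5 sites). DIO-HFD replicates 2 to 4 thus stood above all other mice, and replicate 1 lay among the mice of the remaining groups. Scarf2, a scavenger receptor family member, stood at 19.5%, 37.0%, 39.7% and 43.0% in DIO-HFD and at 13.7% to 18.5% in DIO-VSG (chr16:17804426-17804581, 14 sites). A coding exon of Dusp8, a phosphatase of MAP kinases, stood at 37.97%, 74.8%, 77.7% and 73.7% in DIO-HFD and at 36.8% to 42.6% in DIO-VSG (chr7:142082221-142082319, 11 sites). The third CON-LFD mouse, at 62.0%, and the second DIO-LFD mouse, at 54.1%, stood between these. The stretch nearest to Gm22603 (chr11:56459479-56459531, 5 sites) stood at 27.5% to 66.4% in DIO-HFD and at 0% to 15.1% in DIO-VSG. The difference was -39.1 points (-4.85 in M, SE 0.94), and 1 of its 5 sites has a second exact copy of its 51 bases. Over the other settings the adjusted p of these 10 stretches ranged from 0.000106 to 0.230.

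**Figure D5:**
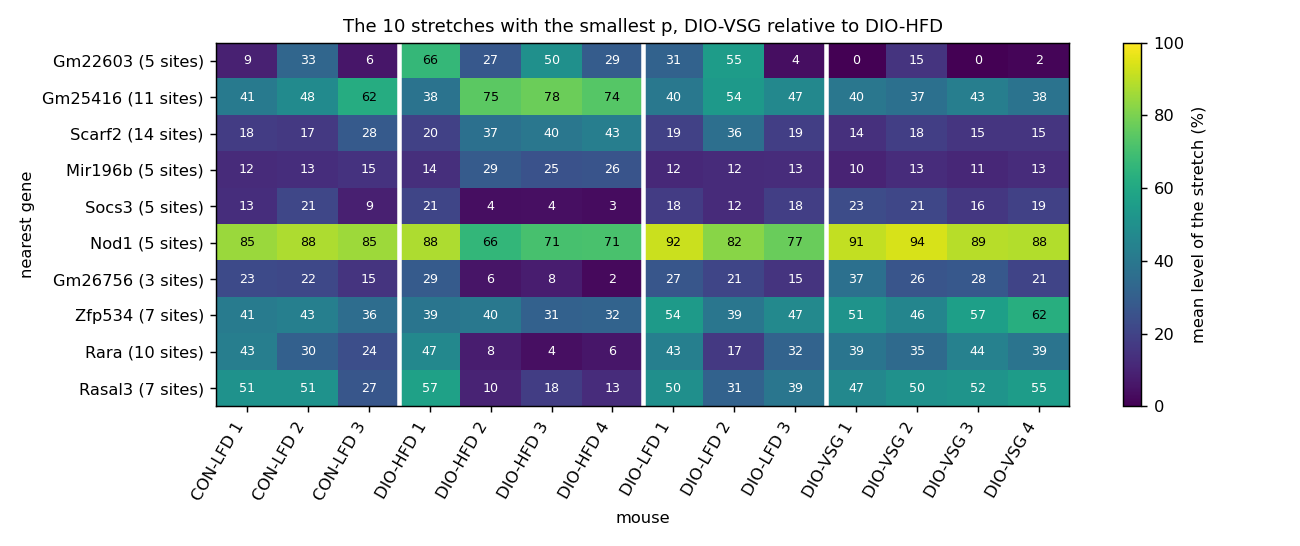
Mean methylation level (%) of the 10 non-promoter island stretches with the smallest p for DIO-VSG relative to DIO-HFD, in each of 14 mice, named by the nearest gene. Rows run from the largest decrease to the largest increase in DIO-VSG, columns are ordered by group, and numbers are rounded levels. DIO-HFD 1 lies nearer to DIO-VSG than to DIO-HFD 2 to 4 in most rows, the exceptions being Gm22603 and Zfp534.

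Of the 10 stretches with the most sites, 9 touched a coding exon. The one with the most was in Casz1, a zinc finger factor of heart and blood vessel development (72 sites, chr4:148952009-148952710). It stood at 73.4%, 43.3%, 55.0% and 48.1% in DIO-HFD and at 65.8% to 68.6% in DIO-VSG (limma adjusted p = 0.106). Sema6c, a semaphorin of axon guidance (68 sites, chr3:95172469-95173682), stood at 36.3% to 45.9% in DIO-HFD and at 34.1% to 39.8% in DIO-VSG, and its SD across mice of 3.93 points was too small for the test. An exon of Fam171a2 (61 sites, chr11:102437374-102438825) also was too even to be tested, with group means of 37.7% to 39.5%. Shisa8 (53 sites) stood at 82.9%, 43.0%, 47.1% and 44.5% in DIO-HFD and at 70.9% to 76.4% in DIO-VSG (limma adjusted p = 0.0736). Sh2b3, an adaptor that restrains cytokine receptors in blood cells (56 sites), stood at 84.9%, 53.0%, 61.9% and 65.0% in DIO-HFD and at 77.2% to 82.0% in DIO-VSG (limma adjusted p = 0.0883). Zfp316 (50 sites, chr5:143253003-143253703) stood at 29.3%, 34.6%, 34.8% and 32.6% in DIO-HFD and at 20.2% to 25.1% in DIO-VSG (limma adjusted p = 0.0709). Of these stretches, Casz1, Shisa8 and Sh2b3 had DIO-HFD replicates 2 to 4 below all DIO-VSG mice, Zfp316 had all 4 DIO-HFD mice above them, and in Sema6c and Fam171a2 the groups overlapped.

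Among stretches of 5 or more sites with a median of 30% to 70%, the spread between mice was widest in the Rnf220 intron nearest to Gm12843, with an SD of 18.1 points over the 14 mice, and in an Agap2 intron, with 17.7 points. Agap2 encodes a GTPase-activating protein of ARF proteins. That stretch (chr10:127081527-127081577, 8 sites) stood at 64.0%, 16.9%, 18.9% and 21.03% in DIO-HFD, at 57.0%, 59.6% and 28.7% in CON-LFD, at 64.8%, 42.6% and 52.6% in DIO-LFD and at 54.0% to 61.5% in DIO-VSG. A second Agap2 stretch, partly coding (16 sites), ranked the same 3 DIO-HFD mice lowest, at 15.02% to 25.1%. Ncf1, a subunit of the phagocyte NADPH oxidase, had a coding stretch (5 sites) at 65.5%, 14.8%, 22.2% and 26.1% in DIO-HFD and at 54.2% to 61.4% in DIO-VSG. In these stretches the lowest mouse of CON-LFD was always replicate 3, and that of DIO-LFD replicate 2.

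The narrowest of the stretches with a median of 30% to 70% were those near Sp6 (SD 0.762 points, mean 50.02%), Gm26821 in Nova2 (0.900 points, 48.9%), Igip (1.02 points, 41.7%), Grrp1 (1.05 points, 43.9%) and Rbm28 in Prrt4 (1.06 points, 49.4%). They consisted almost only of CCGG sites: 5 of 5, 7 of 7, 5 of 6, 4 of 5 and 6 of 6 in that order. In Sp6, a transcription factor of tooth and skin development, all 14 mice lay between 48.8% and 51.02%.

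Gene lists of imprinting, development, chromatin and cell types were looked up among the nearest genes. Imprinted genes, expressed from the copy of 1 parent, were represented by 5 of 60 genes with 78 sites. At 60 tested sites, 23 were higher in DIO-LFD than in DIO-HFD at an unadjusted p of 0.05 (38.3%, against 10.1% of all sites) and 0 lower. The median difference was 7.83 points, against 3.814 over all tested sites. The other comparisons with DIO-HFD did not show this. For CON-LFD 0 of the 60 were higher or lower (0.0%, against 7.76%). For DIO-VSG 5 were higher and 0 lower (8.33%, against 25%). None passed the adjusted threshold, and 21 of the 23 were of Gnas, the locus of the stimulatory G protein alpha subunit with several imprinted transcripts. Its stretch at the untranslated region chr2:174328771-174328978 (17 sites) stood at 37.4%, 55.5% and 37.4% in DIO-LFD and at 30.2%, 25.5%, 23.0% and 26.3% in DIO-HFD, with no overlap (limma, 1.08 in M, SE 0.33, adjusted p = 0.363). CON-LFD stood at 27.0% to 32.1% there and overlapped DIO-HFD. DIO-VSG stood at 28.4% to 40.6% and overlapped both DIO-HFD and DIO-LFD. A separate long Gnas stretch, shown in part above, was even. Its 40 sites outside CCGG had means of 39.3% to 46.9% in the 14 mice and its 6 CCGG sites 70.5% to 76.7%. Dlk1, which restrains adipocyte differentiation, had 11 sites at 56.1% to 63.7% in DIO-LFD and at 47.2% to 56.8% in DIO-HFD.

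Genes of development were the largest list, with 91 of 173 developmental transcription factors and 548 sites, and 12 of 52 Hox genes with 70 sites. Both lists were less methylated than the average site: over the 14 mice the developmental list stood at 31.8% to 36.3% and Hox at 26.3% to 35.96%. For DIO-VSG relative to DIO-HFD, 31 of 414 tested developmental sites were higher and 53 lower at an unadjusted p of 0.05 (20.3%, against 25%), and 4 of 51 Hox sites were higher and 9 lower (25.5%). Tbx1, a T-box factor of heart and pharynx, had 42 sites at 27.8%, 43.3%, 37.3% and 36.4% in DIO-HFD and at 29.0% to 31.3% in DIO-VSG. Hoxd3 stood at 16.7%, 27.5%, 35.1% and 32.7% in DIO-HFD and at 17.9% to 19.9% in DIO-VSG over 11 sites. Hoxb9 stood at 20.7%, 32.5%, 35.7% and 31.7% in DIO-HFD and at 22.4% to 24.7% in DIO-VSG over 12 sites. Hoxb3 (19 sites) stood at 38.1%, 27.1%, 36.1% and 28.2% in DIO-HFD and at 32.6% to 38.2% in DIO-VSG, so the groups overlapped. In Tbx1, Hoxd3 and Hoxb9, DIO-HFD replicates 2 to 4 were above all DIO-VSG mice and replicate 1 below them, whereas Foxc1, a forkhead factor of mesenchyme, had replicates 2 to 4 below DIO-VSG (38.9% to 46.7%, against 49.3% to 52.9%).

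Chromatin regulators had members in 15 of 62 genes, with 28 sites higher and 15 lower in DIO-VSG than in DIO-HFD among 113 tested (38.1% at an unadjusted p of 0.05, against 25%). They split by gene. Cbx8, a Polycomb protein, was at 40.0%, 24.9%, 24.3% and 21.8% in DIO-HFD and at 31.1% to 34.8% in DIO-VSG over 31 sites. Prdm16, a regulator of brown adipocyte identity, was at 21.5%, 34.4%, 44.3% and 34.3% in DIO-HFD and at 20.7% to 24.1% in DIO-VSG over 21 sites. In both genes DIO-HFD replicates 2 to 4 lay outside the DIO-VSG range, on opposite sides, and replicate 1 did not go with them. Among Wnt genes (13 of 63, 62 tested sites), 4 were higher and 14 lower in DIO-VSG (29.0%). Of the 14, 11 were of Apc2, a relative of the tumor suppressor APC, whose 15 sites were at 14.8%, 35.9%, 35.9% and 32.7% in DIO-HFD and at 15.6% to 18.4% in DIO-VSG. Fzd8, a Wnt receptor, stood at 51.3%, 31.6%, 40.8% and 37.9% in DIO-HFD and at 44.9% to 46.6% in DIO-VSG over 14 sites, and 0 of its 12 tested sites were higher or lower by this rule. TGF-beta and BMP genes (10 of 52) had 2 of 22 tested sites higher and 1 lower (13.6%). Genes of adipocyte and lipid metabolism (6 of 59) had 0 of 6 higher or lower by this rule in that comparison, and clustered protocadherins were not among the nearest genes.

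Markers of the cell types that the tissue could hold were thinly covered. Macrophage and fibroblast markers had 0 sites, and adipocyte, lymphocyte and endothelial markers 1 gene each. Cd37, a tetraspanin of lymphocytes, had 9 sites at 76.1%, 31.3%, 31.0% and 39.8% in DIO-HFD and at 64.8% to 69.9% in DIO-VSG. CON-LFD replicate 3 was at 40.2%, and the other 2 CON-LFD mice were at 66.5% and 68.2%. Cfd, the adipocyte protein adipsin, stood at 74.1% to 89.9% in DIO-HFD and at 86.3% to 94.1% in DIO-VSG over 3 sites. At an unadjusted p of 0.05, limma picked 25% of all tested sites for DIO-VSG relative to DIO-HFD. By this rule 1 of 2 tested sites of the epithelial markers Epcam and Foxa1 was higher in DIO-VSG. Sox17, an endothelial factor, had 1 of 5 higher and 1 lower. These are too few sites to set against that share. Over every site of the table, marker genes of adipocytes (7 of 15 genes with sites) ranged from 64.8% to 78.3% in DIO-HFD and 78.0% to 79.3% in DIO-VSG. Lymphocyte markers (9 of 26) ranged from 58.4% to 68.1% and from 62.6% to 64.9%, macrophage markers (4 of 13) from 55.4% to 69.0% and from 66.6% to 67.0%, and fibroblast markers (6 of 11) from 49.5% to 65.9% and from 62.9% to 64.9%. Epithelial markers (12 of 15) ranged from 53.8% to 60.8% and from 57.6% to 60.5%, and endothelial markers (9 of 12) from 46.4% to 51% and from 46.6% to 50.2%. For comparison, all sites on chromosomes 1 to 19 ranged from 57.0% to 65.2% in DIO-HFD and from 63.4% to 64.0% in DIO-VSG. Methylation of marker genes does not count cells, and the part of the cell mix in the differences between mice was not tested.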

How the data were processed

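DNA methylation was measured by RRBS in the mammary fat pad opposite the tumor of 14 mice (CON-LFD n = 3, DIO-HFD n = 4, DIO-LFD n = 3, DIO-VSG n = 4). Bismark (mm10), samtools sorting and methylKit calls were the steps the authors used, and they deposited a fraction per site and mouse, the share of reads methylated (0 to 1), printed here as a percentage. Their methods name filters on extreme coverage and on sites with an SD under 0.05, and 2 mice that they treated as outliers are not analysed here. The table gives no read numbers, so depth is unknown and no counting interval is given. The authors' comparison columns were not used.

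Sites on chromosomes 1 to 19 flagged as island and not promoter were kept, and 217 such sites on other chromosomes were left out. Positions were annotated with GENCODE M21 and sequences read from the RefSeq GRCm38.p6 genome. A symbol was missing for 38 of the sites, and 201 sites of the table, 1 of them among those studied, had a date in place of a symbol. Levels b were converted to M = log2((b + 0.01)/(1 - b + 0.01)) and fitted with limma 3.58.1 (R 4.3.3), with the 4 groups in 1 fit over 65610 sites with an SD of at least 0.05, and Benjamini-Hochberg adjustment over all of them. Runs of 3 or more sites of 1 class with gaps up to 500 bp were averaged and fitted likewise. Means per mouse were compared by two-sided exact permutation tests (SciPy 1.17.1), adjusted over 4 comparisons. Exact copies of the 51 bases around a site were sought with blastn 2.17.0. Python 3.11.15, NumPy 2.4.6, pandas 2.3.3, samtools 1.23.1 and Matplotlib 3.10.9 were also used. The fits were tested on simulated data.

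Named were, per comparison, the site with the smallest p (or 3 past the threshold) and the 10 stretches with the smallest p. Also named were the 10 stretches with the most sites, those of 5 or more sites with the 5 lowest and 5 highest means, and the 5 widest and 5 narrowest with a median of 30% to 70%. From each of 14 gene lists (672 genes), the 3 genes with the most sites were named. From these, the text prints a selection. The sites and lists were chosen with earlier results of these data known, and the comparison of CCGG neighbors, the classes by CON-LFD level, the counts of groups apart and the copy check were added after values had been seen. The exact permutation p-values come from reassigning the mice of the groups compared. Those of limma use a spread pooled over the 4 groups and drawn toward a value shared by all fitted sites or stretches.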

Additional observations from a re-analysis of the deposited data

Results flagged for a closer look

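In groups of 4 mice, 140 combinations of named stretch or gene and group were checked for a mouse far from the other 3. Dixon's criterion at 95% flagged 13. It flags about 1 in 20 of independent items not picked by their values. Many items here were picked by p or by spread across the same mice, so that rate does not apply. In 8 of the 13 the mouse was DIO-HFD replicate 1. It stood at 64.04% at the first Agap2 stretch, 46.86% at Rara, 20.79% at the stretch near Socs3, 82.88% at Shisa8, 57.35% at Rasal3 and 69.68% at the Rnf220 intron nearest to Gm12843, each above its group. It stood at 37.97% at the Dusp8 exon nearest to Gm25416 and at 14.8% over the Apc2 sites, below its group.

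DIO-HFD replicate 3 stood at 52.69% at the Prrt4 exon nearest to Rbm28. Among DIO-VSG mice, replicate 2 stood at 15.14% at the stretch nearest to Gm22603 and at 29.66% at Csf2ra, replicate 3 at 32.58% over the sites of Hoxb3, and replicate 1 at 33.2% over the sites of Otx1.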

How the results depend on the processing

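No read numbers were given, so the error of a single level is unknown. Over all settings, 428 summary values were labelled as the same as reported, 54 as moved and 4 as reversed. For means per mouse, exact permutation tests of 3 mice against 4 cannot give a p below 0.0571. The test of 4 mice against 4 can reach 0.0286. Labels used p adjusted over the 4 comparisons, however, and the other comparisons had 3 mice against 4. No adjusted p for a mean per mouse could then fall below 0.0571. None could pass the threshold under any setting, so a label of same for means per mouse is no measure of robustness. Leaving out 1 mouse in turn moved counts most, and DIO-HFD replicate 1 gave the highest count in each comparison with DIO-HFD. Adjusted site counts ran from 0 to 928 (CON-LFD), 0 to 1083 (DIO-LFD) and 0 to 2547 (DIO-VSG) relative to DIO-HFD, and 0 to 3 for DIO-VSG relative to DIO-LFD. Unadjusted counts ran from 139 to 2161, 289 to 2272, 849 to 3177 and 139 to 411 in that order, and adjusted stretch counts from 0 to 187, 0 to 188, 0 to 260 and 0 to 1. With only the compared groups, 4 sites passed an adjusted p for DIO-VSG relative to DIO-HFD, and unadjusted counts were 135 (CON-LFD), 184 (DIO-LFD) and 349 (DIO-VSG relative to DIO-LFD). With an SD of at least 0.1, which tests fewer sites, they were 88, 150, 684 and 37. Stretches passing for DIO-VSG relative to DIO-HFD, 0 as reported, were 80 with an offset of 0.1 (24.7%, against 24% of all stretches tested), 88 on levels (27.2% against 31.9%), 41 with trended robust eBayes (12.7% against 13.5%), 1 with only both groups (0.309% against 0.0424%) and 47 with at least 5 sites (19.1% against 19.8%). With the replicate number as a block (replicate block) they were 123 (38% against 39.5%). Same-numbered mice correlated between -0.246 and 0.378 over 19 pairs, so the numbers were not taken to pair mice. The excess over promoter islands for DIO-VSG relative to DIO-LFD was 0.739 points over all sites, and -0.0414 to 1.59 with 1 mouse left out. Outside CCGG only, with all mice, it was -0.0413 points. The intronic difference of that comparison ran from -0.271 to 1.88, and that of CON-LFD relative to DIO-HFD at sites in neither exon nor intron from -0.387 to 2.24. Beyond the smaller number of sites, samples or stretches, the cause was not tested.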
